A study of Mus musculus with 6 samples.

Results

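The 8 genes described here are 6 globin genes of the mouse, Hba-a1, Hba-x, Hbb-b1, Hbb-bt, Hbb-bh1 and Hbb-y, together with Hemgn and Blvrb, among 19324 gene symbols in the annotation of the array. They were chosen by name, and every probe set whose annotation held at least 1 of these symbols was taken, which gave 14 of the 45037 probe sets tested. Of the 14, 4 carried several symbols and 10 carried 1. RNA came from blood-forming cells of wild-type C57BL/6 mice, with 3 arrays of LSK cells (low in lineage markers, positive for Sca-1 and Kit, which hold the stem cells) and 3 of LK cells (low in lineage markers, negative for Sca-1, positive for Kit, which hold the committed progenitors). No treatment or engineered allele is named for either population, and the labels do not say whether the arrays come from separate or pooled animals. Every p-value below is therefore set by how far these 3 arrays a population scatter, which may be partly technical. Means are given ± SD over the 3 arrays (n = 3) throughout.

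Haemoglobin is a tetramer of alpha-type and beta-type globin chains, each with a haem group that binds oxygen. In the mouse the first red cells, which form in the yolk sac, use the embryonic chains zeta (Hba-x), beta-h1 (Hbb-bh1) and epsilon-y (Hbb-y), and later red cells use the adult alpha and beta chains. C57BL/6 mice carry the adult beta genes Hbb-bs and Hbb-bt, while Hbb-b1 and Hbb-b2 are the adult beta genes of another haplotype. Hemgn encodes hemogen, a nuclear protein of blood-forming and erythroid cells, and Blvrb encodes biliverdin reductase B, a flavin and biliverdin reductase that is abundant in red cells.

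The adult genes are so alike that a probe set can rarely tell them apart, and the stretches of DNA just before the start of each gene are shown because the adult alpha pair is alike there too. The 300-base windows of Hba-a1 and Hba-a2 in the RefSeq promoter table (build GRCm38.p6) shared an unbroken run of 297 identical bases. The 120 bases before the start are given below, 5′ to 3′ on the strand of the gene. Capitals mark matches on either strand. The motifs searched for erythroid zinc-finger factors such as Gata1 were AGATAA and, as the other common form, TGATAA. They also included CCACACCC, a strict CACCC box, contained in the looser form CCNCNCCC. The core promoter motifs were the box CCAAT, the TATA-type motif TATAAA and its variant form CATAAA.
Hba-a1, chr11:32283552-32283671, plus strand: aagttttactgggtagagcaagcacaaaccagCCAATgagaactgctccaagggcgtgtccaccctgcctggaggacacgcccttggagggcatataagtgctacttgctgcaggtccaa
Hbb-bs, chr7:103827929-103828048, minus strand: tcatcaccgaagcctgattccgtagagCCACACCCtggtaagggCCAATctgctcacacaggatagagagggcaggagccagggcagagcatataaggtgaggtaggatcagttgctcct
Hbb-bt, chr7:103813924-103814043, minus strand: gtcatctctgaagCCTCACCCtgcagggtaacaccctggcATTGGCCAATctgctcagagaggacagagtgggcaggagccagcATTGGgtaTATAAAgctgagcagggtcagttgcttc
Hba-x, chr11:32276480-32276599, plus strand: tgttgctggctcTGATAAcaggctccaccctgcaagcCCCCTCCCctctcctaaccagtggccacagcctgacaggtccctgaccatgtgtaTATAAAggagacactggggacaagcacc
Hbb-y, chr7:103853208-103853327, minus strand: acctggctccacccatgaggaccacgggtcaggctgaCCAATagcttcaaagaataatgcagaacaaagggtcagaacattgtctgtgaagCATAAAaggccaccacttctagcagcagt
Hemgn, chr4:46404184-46404303, minus strand: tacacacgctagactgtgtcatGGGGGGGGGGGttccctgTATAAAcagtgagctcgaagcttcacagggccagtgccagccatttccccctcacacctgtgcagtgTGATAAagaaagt

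In the 250 bases before the start, a CCAAT motif stood in Hba-a1, Hbb-bs, Hbb-bt and Hbb-y, against 33.8% of all 32851 windows. CCACACCC stood in Hbb-bs only among the 6 genes shown, against 3.2% of all windows, while CCNCNCCC was present in 45.9% of all windows. TGATAA stood in Hba-a1 (183 bases before the start), Hba-x (108), Hbb-y (162, on the opposite strand) and Hemgn (13), against 7.94% of all windows, and AGATAA stood in Hbb-bs (210), against 9.99%. TATAAA was present in 12.4% and CATAAA in 10.8% of all windows. These matches describe the letters in the windows and are not evidence of binding. Of the 8 member genes, 6 were found in the promoter table, and Hbb-b1 and Hbb-bh1 were not. Blvrb was found with 2 windows, which are not shown, and Hbb-bs, which is shown, is no member.

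Markers of stem cells and of granulocyte progenitors, which were not part of the sort, differed between the populations. Of 5 stem cell marker genes, 4 were higher in LSK (Mecom, Hlf, Procr and Meis1), and all 4 granulocyte progenitor markers (Mpo, Elane, Prtn3 and Ctsg) were lower in LSK. Among all genes 3.84% were higher and 2.89% lower. Kit lay between 7.33 and 8.86 on the log2 scale on the 6 arrays (adjusted p = 0.124, and 0.0185 with the block, higher in LSK), and the Sca-1 gene is not analysed here. The array medians lay between 2.98 and 3.09 on the log2 scale, so values near 3 are at the lower end of the range where fold changes are compressed. The difference between 3' and 5' control probe sets, which grows with the 3' bias of the amplified RNA, was 2.32, 2.32 and 3.30 in LSK and 3.26, 3.94 and 3.40 in LK replicates 1 to 3. Its mean was lower in LSK by a log2 difference of -0.89 (two-sided exact permutation test p = 0.2, with 0.1 the lowest value this design can reach). With this measure as a covariate, Mecom and Hlf still passed (limma adjusted p = 0.046 and 0.0376). Procr, Meis1 and the 4 granulocyte progenitor markers did not (adjusted p from 0.14 to 0.6). As the measure was itself lower on average in LSK, fits with it cannot tell population and 3' bias apart.

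Adult beta-globin had its highest levels in LSK and differed widely between arrays of the same population. The probe set shared by Hbb-bt, Hbb-bs, Hbb-b1 and Hbb-b2 covers the adult beta genes of C57BL/6 and of the other haplotype. It had linear intensities of 574, 333 and 87.9 in LSK and 134, 35.3 and 35.8 in LK replicates 1 to 3. LSK replicates 1 and 2 lay above every LK array, LSK replicate 3 lay below LK replicate 1, and the groups therefore overlapped. Mean log2 intensities were 8.0 ± 1.39 in LSK and 5.79 ± 1.11 in LK, which is a log2 difference of 2.21 (SE 0.80, 95% confidence interval 0.30 to 4.12, not adjusted for the number of tests), or 4.63-fold. It did not pass the threshold of 0.05 over all probe sets (limma adjusted p = 0.215), which 3.21% of them passed, 2.03% higher and 1.18% lower in LSK. In a bulk sample fewer cells of a type and less RNA per cell cannot be told apart.

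Arrays with the same replicate number moved together in this probe set. The log2 difference of LSK over LK was 2.10, 3.24 and 1.30 within numbers 1, 2 and 3, so LSK was higher in 3 of 3 pairs, as in 22% of all probe sets. With the number as a block, the standard error fell from 0.80 to 0.35, the interval was 1.33 to 3.09, and the adjusted p was 0.0216 (limma), a rule by which 4.95% of all probe sets were higher and 4.29% lower in LSK. The call under the block was lost without the arrays numbered 1 (log2 difference 2.27, adjusted p = 0.113) and held without those numbered 2 (1.70, 0.0194) or 3 (2.67, 0.0232). The difference without the block lay between 1.63 (without LSK replicate 1) and 2.98 (without LSK replicate 3) when 1 array was left out, with adjusted p from 0.0805 to 0.471.

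The level of adult beta-globin moved in part with the 3' to 5' measure. The arrays with the lowest 3' bias, LSK replicates 1 and 2, had the highest beta-globin values, and LK replicate 2, with the highest bias, was with LK replicate 3 at the lowest. LSK replicate 3 and LK replicate 1 had almost the same bias, 3.30 and 3.26, and their beta-globin log2 intensities were 6.46 and 7.07. Other arrays with similar bias differed more. LSK replicates 1 and 2, each at 2.32, had beta-globin values of 9.16 and 8.38. LK replicates 1 and 3, at 3.26 and 3.40, had 7.07 and 5.16. LK replicate 2, at 3.94, had almost the same value as LK replicate 3, 5.14. Whether the bias set the globin level was not tested. With the bias as a covariate, the log2 difference was 0.18 (limma adjusted p = 0.9999), and with the block as well it was 1.08 (adjusted p = 0.206). The bias of LSK replicates 1 and 2 was below that of every LK array, so these fits cannot tell population and bias apart.

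**Figure D1:**
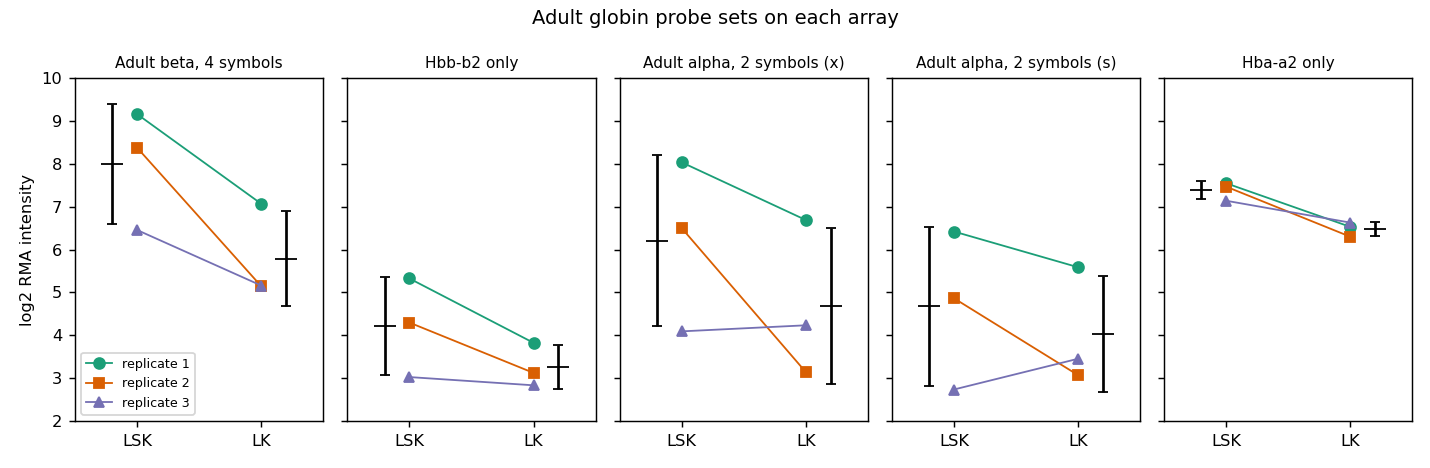
Log2 RMA intensity of 5 adult globin probe sets in LSK and LK cells. Each coloured marker is 1 array, lines join arrays with the same replicate number, and the black bars give the mean and SD of 3 arrays. Replicate 1 is highest in both populations for the shared beta set and both bright shared alpha sets. The set annotated to Hba-a2 alone spans 1.25 log2 units over the 6 arrays against 4.02 for the shared beta set.

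Adult alpha-globin is the partner chain, and none of its 4 member probe sets passed the threshold, while the set of Hba-a2, which is no member, did. Both bright member sets were highest on LSK replicate 1. The brighter probe set shared by Hba-a1 and Hba-a2 had intensities of 263, 90.8 and 17.1 in LSK and 103, 8.81 and 18.8 in LK replicates 1 to 3. LK replicate 1 was higher than LSK replicates 2 and 3, and LSK replicate 3 was lower than LK replicate 3, so the groups overlapped widely. On the log2 scale the means were 6.21 ± 1.99 in LSK against 4.69 ± 1.82 in LK, with a log2 difference of 1.52 (SE 1.21, 95% confidence interval -1.36 to 4.41, limma adjusted p = 0.59). The difference was 1.35, 3.37 and -0.14 within numbers 1, 2 and 3. It fell to 0.61 without LSK replicate 1 and rose to 2.58 without LSK replicate 3.

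The fainter shared alpha probe set was led by both replicate 1 arrays. Its log2 intensities were 6.42, 4.87 and 2.73 in LSK and 5.59, 3.07 and 3.45 in LK replicates 1 to 3. LSK replicate 3 was the lowest array of all, and both replicate 1 arrays were the highest of their population. The log2 difference was 0.64 (SE 1.03, 95% confidence interval -1.82 to 3.10, adjusted p = 0.811), and it was -0.24 without LSK replicate 1. With the 3' bias as a covariate both bright shared alpha sets turned to negative values, -1.65 for the first and -1.99 for the second (adjusted p = 0.829 and 0.706).

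The remaining alpha probe sets of the group stayed dim. The dim set shared by Hba-a1 and Hba-a2 lay between 2.26 and 2.98, and its log2 difference of 0.38 (SE 0.16, adjusted p = 0.278) separated the groups without overlap at a level under the array medians. The set that carried the symbol Hba-a1 alone lay between 2.40 and 2.76, with a log2 difference of 0.04 (95% confidence interval -0.29 to 0.36, adjusted p = 0.93). The 4 alpha member sets thus ranged from the lower end of the range to well above the array medians.

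Probe sets of adult globins outside the 8 symbols gave the only call among the globin sets. The probe set annotated to Hba-a2 alone had log2 intensities of 7.55, 7.47 and 7.14 in LSK and 6.53, 6.30 and 6.63 in LK replicates 1 to 3. All LSK arrays lay above all LK arrays, and the spread within each population was small. LSK exceeded LK by 1.87-fold, a log2 difference of 0.90 (SE 0.16, 95% confidence interval 0.51 to 1.29, limma adjusted p = 0.0400).

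This call was close to the threshold. With all 6 arrays kept it was lost with an offset of 16 added before log2 (log2 difference 0.80, adjusted p = 0.0508) and with limma's trend and robust variances (adjusted p = 0.0866). It held without LSK replicate 3 (adjusted p = 0.0376). Leaving out any of the other 5 arrays ended it, with adjusted p from 0.0849 (LK replicate 2) to 0.135 (LSK replicate 1) and log2 differences over all 6 fits from 0.81 to 1.02. With the 3' bias as a covariate its log2 difference was 0.55 (adjusted p = 0.552). The array order of this set differed from that of the bright shared alpha sets, in which LK replicate 1 stood far above the other LK arrays. In LSK replicate 3 its intensity was 141, against 17.1 and 6.65 in the bright shared alpha sets, which are annotated to Hba-a2 as well. Whether the set measures Hba-a2 alone was not tested.

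Hbb-b2 is an adult beta gene of another haplotype than that of C57BL/6, and which transcripts its probe sets measure here was not tested. Of the sets annotated to Hbb-b2 alone, the brighter had log2 intensities of 5.33, 4.30 and 3.02 in LSK and 3.82, 3.12 and 2.83 in LK replicates 1 to 3. Replicate 1 was the highest in each population, as in the shared beta set, and the groups overlapped. Its log2 difference was 0.96 (SE 0.57, adjusted p = 0.462, and 0.0884 with the block). The dimmer one lay between 2.21 and 2.47 on all 6 arrays.

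The embryonic globins were at the lower end of the range in both populations. The 7 probe sets of Hba-x, Hbb-bh1 and Hbb-y lay between 2.35 and 3.12 on the log2 scale on all 6 arrays, where between 2.01% and 51.6% of the tested probe sets of the same array had lower values. Their log2 differences ran from -0.27 to 0.30 with a median of -0.06, against -0.01 over all probe sets, and none passed the threshold (limma adjusted p from 0.273 to 0.99, with 1 of the 7 at an unadjusted p under 0.05).

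Hba-x, the zeta chain, had log2 intensities of 2.39, 2.61 and 2.42 in LSK and 2.66, 2.44 and 2.50 in LK replicates 1 to 3. The populations overlapped, and the log2 difference was -0.06 (95% confidence interval -0.37 to 0.25). Hbb-bh1, the beta-h1 chain, had differences of 0.30, 0.0048 and 0.09 in its 3 probe sets, and Hbb-y, the epsilon-y chain, had -0.18, -0.27 and -0.15. The first Hbb-bh1 set (2.80 ± 0.12 in LSK and 2.50 ± 0.09 in LK) and the second Hbb-y set (2.39 ± 0.04 and 2.66 ± 0.13) had groups without overlap, in opposite directions and both under the array medians.

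**Figure D2:**
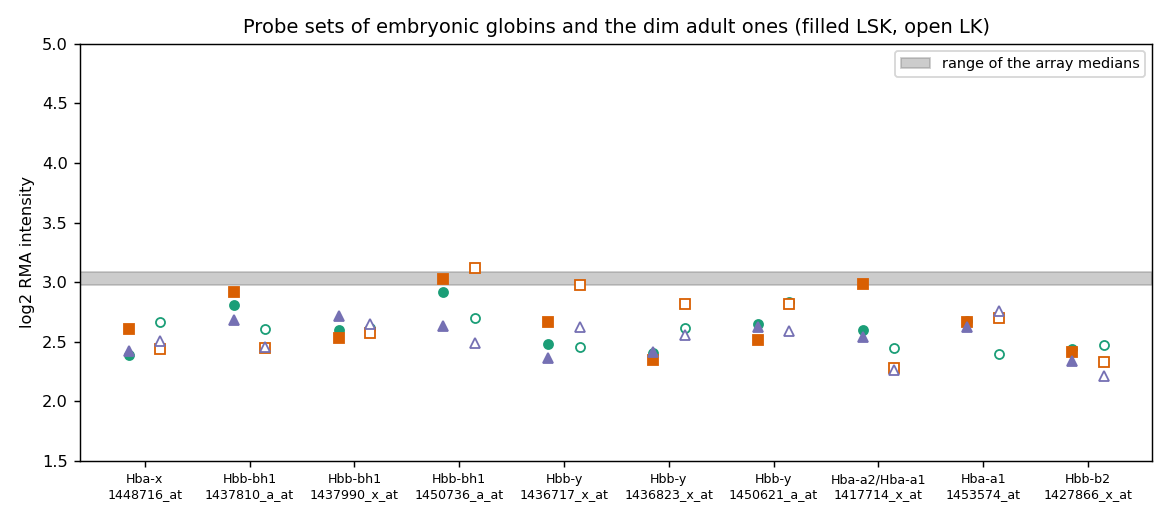
Log2 RMA intensity of the 7 embryonic globin probe sets and 3 dim adult ones on each array, with filled markers for LSK, open markers for LK and shapes for replicates 1 (circle), 2 (square) and 3 (triangle). The grey band is the range of the array medians (2.98 to 3.09), and the embryonic values lie between 2.35 and 3.12.

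Set side by side, the bright adult members and the embryonic ones differed in how far they moved between arrays, and the dim adult members did not stand apart from the embryonic ones. The shared beta set and the bright shared alpha sets spanned 4.02, 4.90 and 3.69 log2 units over the 6 arrays, while the 2 dim adult alpha sets spanned 0.36 (Hba-a1 alone) and 0.72 (shared), and the 7 embryonic sets between 0.18 and 0.64. The median log2 difference between LSK and LK was 0.64 over the 5 adult member sets and -0.06 over the 7 embryonic ones. The adult median is the value of the fainter shared alpha set, whose 95% confidence interval was -1.82 to 3.10. The adult sets are annotated to overlapping genes, and none of them passed the threshold, so the medians do not show a contrast between adult and embryonic globins. The 95% confidence intervals of the 7 embryonic sets all lay between -0.60 and 0.60.

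Over all 14 member probe sets none passed limma's threshold, where 3.21% of all probe sets did, and 3 had an unadjusted p under 0.05 (21.4%, against 17.7% of all). The groups did not overlap in 3 of the 14, against 23.7% of all probe sets, and all 3 were dim sets. With the replicate block 1 of the 14 passed, the shared beta set, against 9.24% of all. These shares lie near those of the array as a whole.

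**Figure D3:**
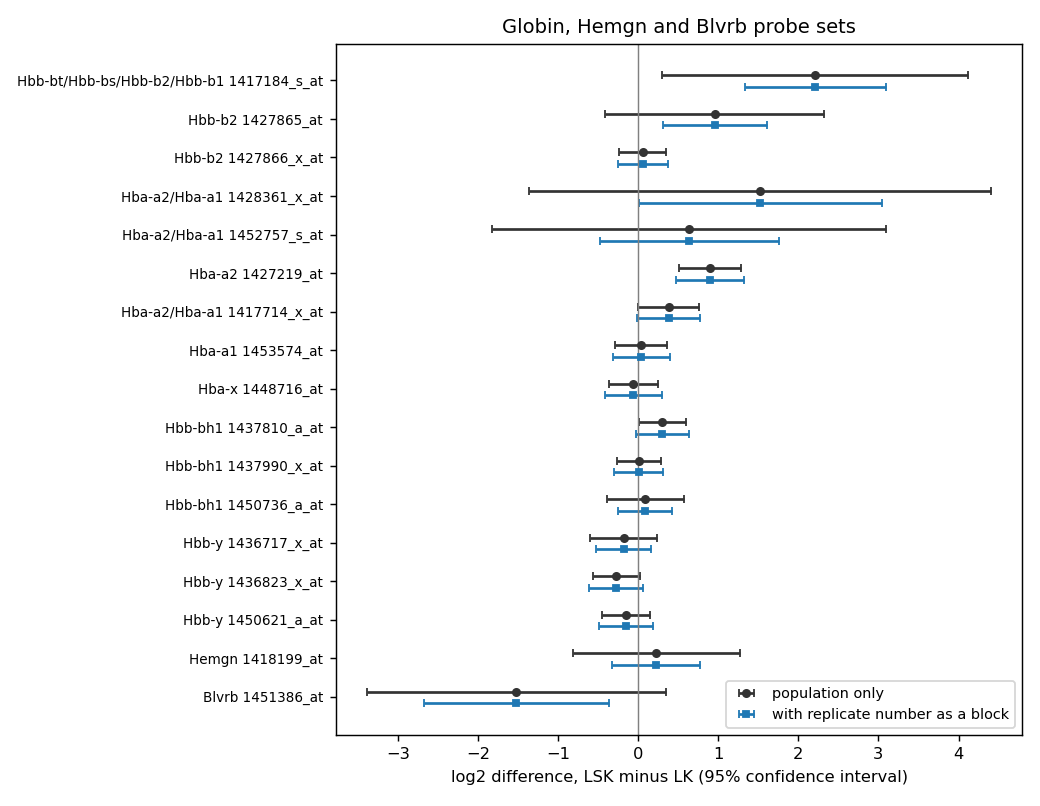
Log2 difference between LSK and LK with its 95% confidence interval for the 14 member probe sets and 3 further adult globin sets, fitted with population alone (black circles) or with a replicate block added (blue squares). Positive values are higher in LSK. The shared beta set lies at 2.21 with intervals above 0 in both fits, the dim sets cluster at 0, and Blvrb lies at -1.52.

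Hemgn was well above the array medians on all 6 arrays, and its populations overlapped. Its log2 intensities were 8.0, 7.56 and 7.20 in LSK and 8.35, 6.83 and 6.89 in LK replicates 1 to 3. The highest array of all was LK replicate 1, and the other LK arrays were below every LSK array. Its means were 7.59 ± 0.41 in LSK against 7.36 ± 0.86 in LK, with a log2 difference of 0.23 (SE 0.44, 95% confidence interval -0.82 to 1.27, limma adjusted p = 0.846). Its sign was not settled: the difference was -0.038 when LK replicate 2 was left out, -0.0048 when LK replicate 3 was, and 0.72 when LK replicate 1 was.

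Blvrb had a lower mean in LSK, and its difference did not pass the threshold. Its log2 intensities were 3.81, 3.14 and 3.16 in LSK and 6.80, 3.58 and 4.29 in LK replicates 1 to 3. LK replicate 1 stood far above the other arrays, and LK replicate 2 lay below LSK replicate 1, so the groups overlapped. The log2 difference was -1.52 (SE 0.78, 95% confidence interval -3.39 to 0.35, adjusted p = 0.387, and 0.116 with the block), it was -2.99, -0.44 and -1.14 within numbers 1, 2 and 3, and without LK replicate 1 the difference was -0.56. LK replicate 1 was also the highest LK array for Hemgn, the shared globin sets, Klf1 and Gata1.

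**Figure D4:**
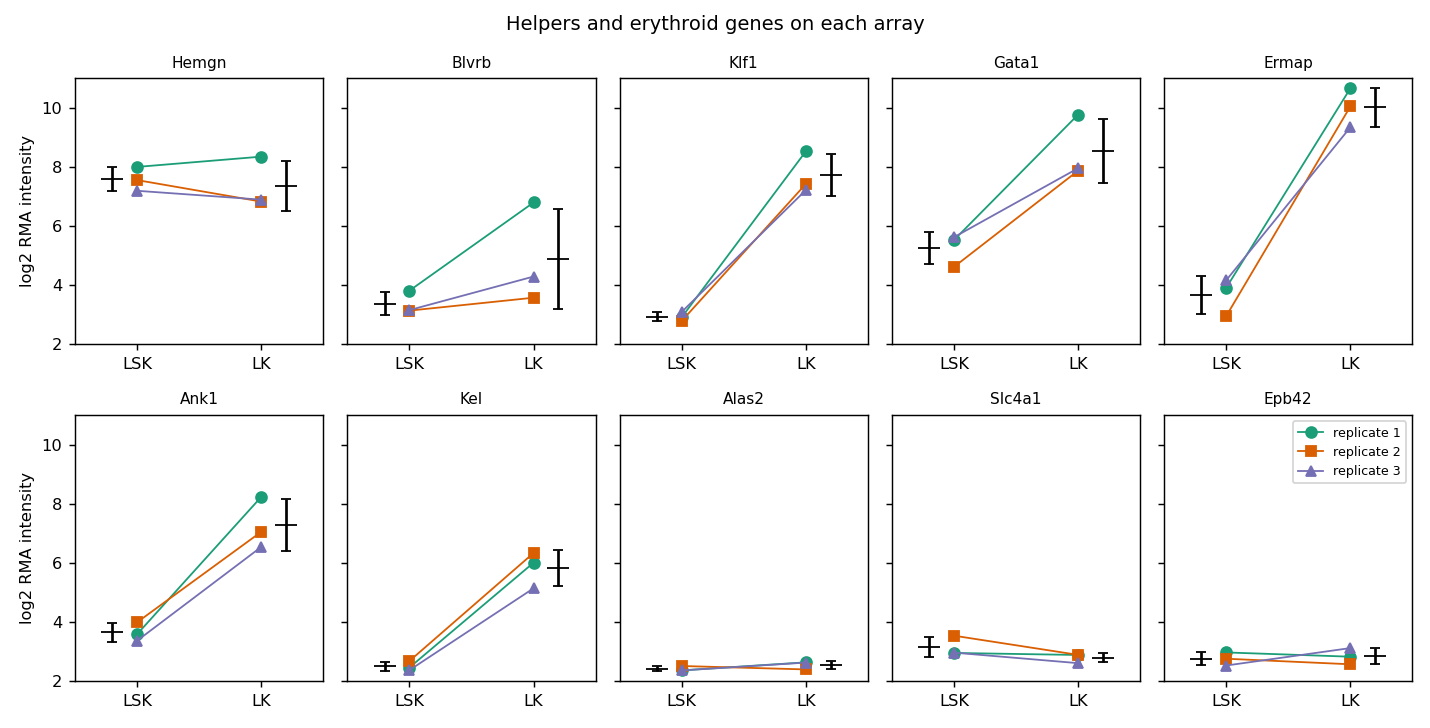
Log2 RMA intensity of Hemgn, Blvrb and 8 erythroid genes in LSK and LK cells, with 1 marker per array, lines between arrays of the same number and black bars for the mean and SD of 3 arrays. Klf1, Gata1, Ermap, Ank1 and Kel are higher in all LK arrays, while Alas2, Slc4a1 and Epb42 stay between 2.36 and 3.53 in both populations.

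Transcripts of genes that regulate globin transcription moved in both directions. Klf1, the factor that binds CACCC motifs of the adult beta gene, had log2 intensities of 2.91, 2.79 and 3.09 in LSK and 8.53, 7.43 and 7.22 in LK replicates 1 to 3. All 3 LSK arrays lay at the lower end of the range and far below every LK array (log2 difference -4.80, SE 0.34, limma adjusted p = 0.00158). Gata1, the GATA factor of erythroid cells, was at 5.53, 4.62 and 5.62 in LSK and 9.78, 7.88 and 7.96 in LK (-3.28, SE 0.55, adjusted p = 0.0214). Lmo2, a bridge protein of the same complex, was instead higher in LSK (0.79, SE 0.14, adjusted p = 0.0235), at 11.6 against 10.8.

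Of 12 listed regulators of globin transcription, 1 was higher in LSK (Lmo2), 3 were lower (Klf1, Gata1 and Mafg) and 8 did not pass. Among all genes 3.84% were higher and 2.89% lower (7.02% and 7.36% with the block). The median log2 difference of this list was 0.27, against -0.02 over all genes. With the block, Nfe2, a factor of the globin control regions, passed as well (0.62, adjusted p = 0.0521 without and 0.0353 with the block). Gata1 was also lost with an offset of 16 (adjusted p = 0.0548). Klf1 alone passed in the 3 fits that left out LSK replicate 1, LSK replicate 2 and LK replicate 3 in turn, and Lmo2 also missed when LK replicate 2 was left out (adjusted p = 0.0582). Of 10 genes of globin switching and repression, 0 were higher and 1 was lower, the methyl-CpG-binding protein gene Mbd2 (-0.90, SE 0.15, adjusted p = 0.0209). Bcl11a, a repressor of embryonic and fetal globin genes, was bright in both populations, at 10.80 ± 0.06 in LSK and 10.39 ± 0.40 in LK (adjusted p = 0.32). Mbd2 missed the threshold in 4 of the 6 fits with an array left out (adjusted p from 0.0535 to 0.0867) and passed in those without LSK replicate 3 and LK replicate 2.

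Genes that make the haem group were lower in LSK where they passed. Of 9 measured, 0 were higher, 3 were lower and 6 did not pass, with a median log2 difference of -0.76. Alas1, the form of the first enzyme of haem synthesis found in all tissues, had a log2 difference of -3.31 (SE 0.61, adjusted p = 0.0291), the later enzyme Cpox -2.38 (SE 0.23, adjusted p = 0.00469), and the third was Fech, which inserts iron (-1.28, adjusted p = 0.0361). Alas2, the erythroid form of the first enzyme, lay at 2.36, 2.51 and 2.36 in LSK and 2.63, 2.39 and 2.62 in LK, at the lower end of the range in both. With the 3' bias as a covariate the Alas1 difference shrank to -1.70 (adjusted p = 0.327), and with an offset of 16 its adjusted p was 0.0554. With the block, Alad, the next enzyme of the pathway, passed as well (-1.33, adjusted p = 0.157 without and 0.0177 with the block). Cpox alone passed in the fits that left out LSK replicate 1, LSK replicate 2 and LK replicate 3 in turn, and Alas1 missed in these and when LK replicate 2 was left out (adjusted p from 0.0755 to 0.109).

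Around Blvrb, none of 5 genes of haem breakdown and export passed. The lowest p was that of Hmox2, the constitutive haem oxygenase (log2 difference 1.05, SE 0.33, adjusted p = 0.119, and 0.036 with the block), and Blvra, the other biliverdin reductase gene, was at 6.66 ± 0.29 in LSK and 7.01 ± 0.28 in LK (adjusted p = 0.388). None of 8 red cell redox genes passed, and Glrx5, which serves iron-sulfur cluster assembly, had the lowest p (-1.06, SE 0.27, adjusted p = 0.0695, and 0.0173 with the block). Eif2ak1, the haem-regulated kinase that slows globin translation when haem is short, was at 6.67, 5.11 and 6.73 in LSK and 7.93, 6.96 and 7.54 in LK (-1.31, SE 0.48, adjusted p = 0.168, and 0.02 with the block). Of the 5 other globins measured, Hba-a2 passed in the fit over genes (limma adjusted p = 0.0291). There it is represented by the same probe set as above, so this is no second measurement. Mb, Cygb and Ngb, the globins of muscle, many tissues and nerve cells, had both means under a log2 of 4.

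Terminal erythroid membrane genes gave 0 higher, 5 lower and 5 not past the threshold among 10 measured, with a median log2 difference of -2.67. Ermap, an erythroblast membrane protein gene, was at 3.91, 2.95 and 4.16 in LSK and 10.66, 10.05 and 9.35 in LK (-6.35, SE 0.42, adjusted p = 0.00134). Ank1, the ankyrin of the red cell skeleton, was at 3.59, 3.99 and 3.36 against 8.24, 7.05 and 6.54 (-3.63, SE 0.43, adjusted p = 0.00717). Kel, Rhag and Tspan33 were the other 3. With the block, the water channel gene Aqp1 passed as well (-2.92, adjusted p = 0.079 without and 0.027 with the block). Ermap, Ank1, Kel and Rhag passed in all 6 fits with 1 array left out, but Kel and Rhag were lost without both arrays numbered 1, and Ank1 was lost without both numbered 3 (adjusted p = 0.057). With the 3' bias as a covariate none of the 14 genes called in the pathway lists passed, with Ermap (-5.94, adjusted p = 0.0648) and Klf1 (-4.91, adjusted p = 0.0666) the nearest.

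Markers of other erythroid stages were set beside the globin values. The summed intensity of 7 early erythroid markers was 3082 to 3361 in LSK and 5676 to 11260 in LK. Car2 made up most of the LSK sum, at 2688, 2276 and 2042 against 4462, 1927 and 1925 in LK, and did not pass (limma adjusted p = 0.867). Of the 7, 4 were lower in LSK, with Klf1 and Gata1 of the list above among them, and 0 were higher. Among all genes 2.89% were lower and 3.84% higher. With the block Epor was lower too (adjusted p = 0.0262). Of 5 late erythroblast and reticulocyte markers measured, 4 (Alas2, Slc4a1, Epb42 and Trim10) had both means under a log2 of 4, and the list's summed intensity was 38.4 to 42.8 in LSK and 86.4 to 248 in LK. Tspan33 carried this difference, with intensities of 13.7, 11.8 and 11.9 in LSK and 218, 78.4 and 58.3 in LK, and the other 4 did not pass (adjusted p from 0.361 to 0.969). Adult beta-globin at an intensity of 574 in LSK replicate 1 therefore stood beside late erythroid markers at the lower end of the range. Mature neutrophil markers, of which 0 of 5 passed, summed to 12690 to 18990 in LSK and 9545 to 18190 in LK. With the block 3 of them were called higher in LSK, the granule protein genes Ltf (log2 difference 0.87, adjusted p = 0.0154), Camp (1.17, 0.0378) and Ngp (0.57, 0.0439). The part of these cell types in the globin values was not tested.

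**Figure D5:**
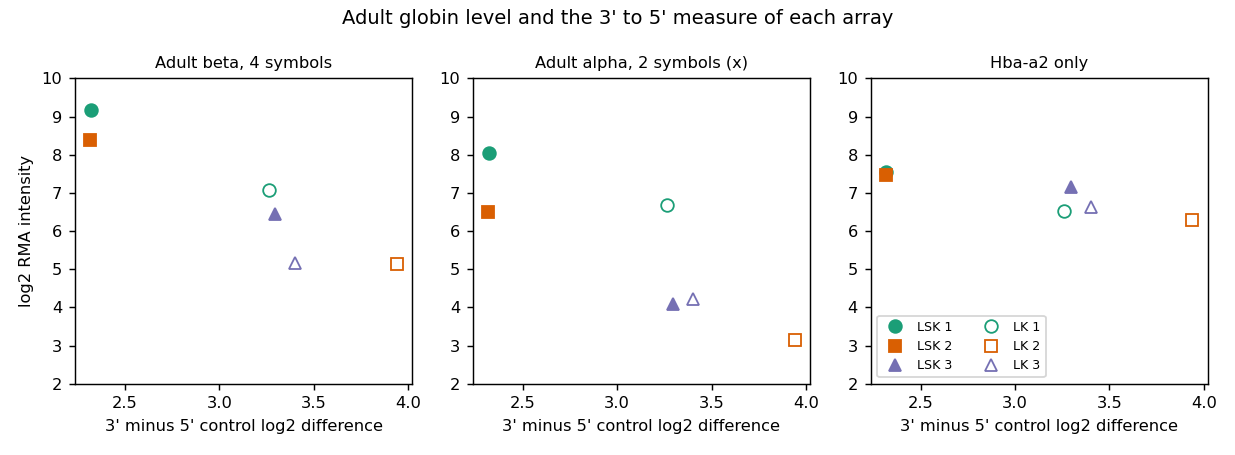
Log2 RMA intensity of the shared adult beta set, the brighter shared alpha set and the Hba-a2 set (vertical axes) against the 3' minus 5' control log2 difference of each array (horizontal axes), with filled markers for LSK and open ones for LK. LSK replicate 1, at 2.32, lies highest and LK replicate 2, at 3.94, lies lowest in all 3 panels, while in the alpha panel LK replicate 1 lies above LSK replicate 2.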

How the data were processed

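Per the labels' protocols, total RNA of the sorted cells went through linear amplification and biotin labelling before hybridisation. The deposited files hold linear intensities for each probe set, which the authors computed with RMA, with affy and R 2.11.0 listed in the submitters' processing notes. Because RMA gives all arrays alike distributions, a change common to most genes cannot be measured. Detection calls and scan files are not analysed here.

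After log2 transformation and removal of 64 control probe sets, limma 3.58.1 under R 4.3.3 was fitted to the other 45037, with population as the term (lmFit, then eBayes). Tests were two-sided, with Benjamini-Hochberg adjustment over all 45037 and a threshold of 0.05. The fit was tested on simulated data. Probe sets annotated to several genes were kept for the globins. Pathway lists were read from a fit over 18193 genes, each represented by its brightest probe set with exactly 1 symbol. Symbols were updated through RefSeq for 34741 of the 34945 such probe sets. Errors refer to log2 values. With 3 arrays a population, their number limits the precision.

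Same-numbered arrays deviated together from their population means (r across probe sets 0.42, 0.45 and 0.27, against -0.41 to 0.07 for different numbers). Deviations of 3 arrays from their mean sum to 0, so positive values for same numbers bring negative ones for different numbers. The labels do not say what the number stands for. On these correlations alone, same-numbered arrays were treated as pairs, and the replicate block is given where it changes a call of a gene the report names. No array pair held identical values (0 of 15).

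The members and lists were chosen with earlier results of these data known. The rule for named genes takes all member probe sets and, from each list, the 2 largest differences past the threshold in each direction or the gene with the lowest p. Alternatives were the block, renewed quantile or loess normalisation, an offset, a filter on dim probe sets, other variance models, array weights, the 3' bias as a covariate, other ways to represent a gene and leaving out arrays. Nfe2, Alad, Aqp1, Epor, Car2, Ltf, Camp, Ngp, Kit, Mafg, Fech, Kel, Rhag, Tspan33, Bcl11a, Blvra, Alas2, Slc4a1, Epb42, Trim10, Mb, Cygb and Ngb were added after their values were seen.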

Additional observations from a re-analysis of the deposited data

How the results depend on the processing

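The call count of the 14 member probe sets was 0 with limma (3 at an unadjusted p under 0.05). It was 1 with the replicate block, also with the block and without both arrays numbered 2 or 3 (1 and 1), and 0 in every other alternative run. Among all probe sets 1446 passed. The count was 4163 with the replicate block, 3968 with array weights, 946 with an offset of 16, 7 with the 3' to 5' covariate and 194 with block and covariate. It was 767, 90 and 0 without both arrays numbered 2, 1 and 3 (5423 at an unadjusted p under 0.05 in the last), 667, 3115 and 2378 with the block and without both arrays numbered 1, 2 and 3, and 220 to 1481 without 1 array. Of the pathway list genes 14 passed, with 20 (4 higher, 16 lower) under the replicate block, 19 (4 and 15) with array weights, 0 under the covariate (18 at an unadjusted p under 0.05), 1 under block and covariate, 6, 5 and 4 without both arrays numbered 2, 1 and 3, 9 with the block and without both arrays numbered 1, and 6 to 14 without 1 array. The split of 2 higher and 12 lower became 5 and 11 with loess normalisation and 4 and 7 with the offset. The means of a gene's probe sets gave 12. The 3' to 5' difference stayed below 0 (-1.22 to -0.69 without 1 array). The fits without both arrays numbered 1 or 3, and those that join the block with left-out arrays, were added after seeing the data.

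Signs turned mostly in dim sets or under the covariate, and the cause was not tested. Under the covariate the values were -1.65 and -1.99 (brighter and fainter shared alpha), -0.36 and -0.0228 (brighter and dimmer Hbb-b2) and -0.58 (Hemgn). Under block and covariate they were -0.52 and -0.85 (shared alpha), -0.0343 (Hba-a1 alone) and 0.0472 (last Hbb-y set). With array weights they were -0.0498 (Hba-a1 alone) and -0.0017 (second Hbb-bh1 set). Without both arrays numbered 1 they were -0.0858 (Hba-a1 alone) and 0.0455 (Hba-x), without both numbered 2 -0.0238 (Hemgn), and without both numbered 3 -0.0271 (second Hbb-bh1 set), each with or without the block. With 1 array left out, ranges that crossed 0 were -0.24 to 1.61 (fainter shared alpha), -0.0751 to 0.1058 (Hba-a1 alone), -0.0054 to 0.1216 (dimmer Hbb-b2), -0.1292 to 0.0027 (Hba-x), -0.0451 to 0.046 and -0.052 to 0.2655 (second and last Hbb-bh1 sets) and -0.038 to 0.72 (Hemgn).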

Other observations

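The genes whose pattern over the 6 arrays was most like that of adult beta-globin, by the root mean square difference of log2 values centred on their mean, were the co-chaperone gene Dnajb2 (0.39 log2 units), the interferon-induced gene Oas3 (0.48) and the RNA-binding protein gene Mex3a (0.51). Dnajb2 had log2 intensities of 5.99, 5.47 and 3.75 in LSK and 4.20, 3.04 and 2.99 in LK replicates 1 to 3. The reference, the shared beta set, had the same order of arrays in LSK. Replicate 1 was the highest LK array in both, while LK replicates 2 and 3 lay close together in both, at 5.14 and 5.16 in the beta set. The brighter shared alpha set had less close neighbours, Pknox1 (0.84), Dnajb2 (0.86) and Mex3a (0.94), a reference set chosen after its values were seen. The set that carries Hba-a1 alone lies at the lower end of the range, and its neighbours Pde1a, Gstt4 and Gpr61 lie there too.

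Hemgn was closest to Pfkm, the muscle form of phosphofructokinase (0.14), 2210016L21Rik (0.14) and B4gat1 (0.15). Blvrb was closest to St3gal5, a sialyltransferase gene (0.32), Septin8, a cytoskeletal GTPase gene (0.35), and Cdr2 (0.36). In St3gal5, Septin8 and Cdr2, as in Blvrb, LK replicate 1 was the highest of the 6 arrays.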
